A study of Mus musculus with 4 samples.

Results

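The heptad is a set of 7 transcription factors, LMO2, TAL1, LYL1, GATA2, RUNX1, FLI1 and ERG, and its RNA was measured in LSK cells with and without *Bptf*. The 7 genes were taken by symbol from the table of 18598 genes, and 7 of 7 were found there and entered the tests, which required an average of 10 or more normalized counts. LSK cells are bone marrow cells that lack lineage markers and carry SCA-1 and c-KIT, a sorted fraction made up of hematopoietic stem cells and early progenitors. BPTF is the largest subunit of NURF, a complex that moves nucleosomes. Both groups were C57BL/6 mice of about 3 months, carried floxed *Bptf* alleles and received pIpC, an inducer of interferon. The *Bptf* cKO mice, labelled *Bptf* -/-, also carried *Mx1*-cre, a recombinase under an interferon-inducible promoter that is active in blood cells and in other tissues, which deleted exon 2 of *Bptf*, and the controls were *Bptf* f/f littermates. The absence of *Bptf* and the presence of cre cannot be told apart in these groups. LSK cells were sorted 10 days after induction, each library came from the pooled cells of 5 mice, and there were 2 libraries per genotype.

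The heptad factors occupy many of the same regulatory regions in blood stem and progenitor cells, often close to one another, and several of them bind enhancers of their own and of each other's genes. TAL1 and LYL1 are related basic helix-loop-helix proteins that bind the E-box as dimers with E proteins. GATA2 binds GATA motifs, RUNX1 binds RUNX motifs together with its cofactor CBFB, and FLI1 and ERG are related ETS factors. LMO2 does not bind DNA itself and bridges TAL1 or LYL1, GATA factors and the cofactor LDB1 in 1 complex. Loss of *Tal1*, *Lmo2*, *Gata2* or *Runx1* abolishes or severely reduces the formation of definitive blood in mouse embryos.

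The libraries held between 14091054 and 30134742 reads on listed genes, and every heptad gene had at least 1514 reads in every library. *Bptf* had 5520 and 5850 normalized counts, that is, reads divided by a size factor per library, in the controls, and 3398 and 3320 in *Bptf* cKO. It fell by 0.76 on the log2 scale (SE 0.090, limma adjusted p = 0.0439, edgeR 0.0531), the direction that the labels give. Replicate 2 of both genotypes stood apart from replicate 1 in *Xist* (15675 and 11843 against 0.775 and 3.25 normalized counts in control and *Bptf* cKO) and in the pluripotency gene *Pou5f1* (582 and 738 against 0 and 0), so the difference of each heptad gene is also given within the pairs of equal number. Control replicate 2 had the highest level of *Fos*, at 37418 normalized counts against 16269 in control replicate 1 and 4335 and 4312 in *Bptf* cKO. The LSK marker *Kit* lay between 13634 and 17051 normalized counts and *Ly6a*, which encodes SCA-1, between 726 and 1743, with overlapping genotypes. In bulk samples such as these, fewer cells of a type and less RNA per cell cannot be told apart.

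Of the 7 heptad genes, *Lmo2*, *Erg* and *Fli1* lay below both controls in each *Bptf* cKO library and *Gata2* lay above them, and the genotypes overlapped for *Tal1*, *Lyl1* and *Runx1*. Across all 14858 tested genes the genotypes did not overlap for 47.0%, against 4 of 7 here. The differences of these 4 were between 0.34 and 0.48 in size on the log2 scale, which left *Lmo2* at 71.5% and *Gata2* at 128% of the control level. None of the 7 passed an adjusted p of 0.05 in limma with genotype as the only factor, and 0.74% of all tested genes did. This test was used throughout, on log2 of the normalized count plus 1. Fits that also allowed for the replicate number called more of the 7 and more of all genes, and are given at the end. At an unadjusted limma p under 0.05 there were 4 of the 7, against 15.7% of all tested genes. The edgeR test on the whole reads also called 0 of the 7, against 0.633% of all genes (0.303% lower and 0.33% higher). DESeq2 on the same reads called 2, *Lmo2* and *Erg*, both lower, against 5.51% of all genes (3.37% lower and 2.15% higher). The median log2 fold change was -0.24 over the 7 genes and 0.0010 over all tested genes.

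**Figure D1:**
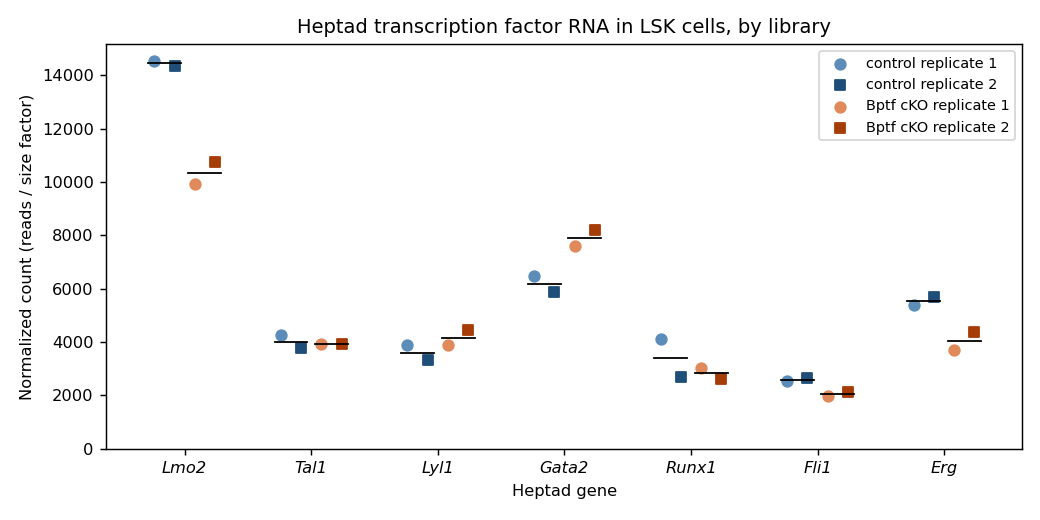
Normalized count of each heptad gene (y axis, linear from 0) in the 2 control and 2 *Bptf* cKO libraries, with each library as a point and the mean of each genotype as a line. The *Bptf* cKO points of *Lmo2*, *Erg* and *Fli1* lie below both control points, those of *Gata2* lie above, and the genotypes overlap for *Tal1*, *Lyl1* and *Runx1*.

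*Lmo2*, the bridging subunit, lies on the plus strand of chromosome 2 from 103957986 to 103981878 (GENCODE vM21, GRCm38). It had 14539 and 14339 normalized counts in control replicates 1 and 2, and 9912 and 10757 in *Bptf* cKO. The controls were nearly level, and both *Bptf* cKO libraries were below them. The log2 fold change was -0.48 (SE 0.094, limma adjusted p = 0.106), and the pairs of equal number gave -0.55 and -0.41. DESeq2 gave an adjusted p of 0.00210 and edgeR 0.122. By size of difference in either direction, 22.4% of all tested genes were at or beyond *Lmo2*.

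The ETS factor genes were lower in *Bptf* cKO as well. *Erg* (chr16:95359169-95586593, minus strand) had 5375 and 5703 normalized counts in the controls and 3712 and 4358 in *Bptf* cKO. Its log2 fold change was -0.46 (SE 0.11, limma adjusted p = 0.161), with -0.53 and -0.39 in the replicate 1 and 2 pairs, and DESeq2 gave 0.0396 and edgeR 0.188 as adjusted p. *Fli1* (chr9:32422204-32542861, minus strand) had 2533 and 2658 in the controls and 1971 and 2136 in *Bptf* cKO. No control library of either gene reached down to a *Bptf* cKO library. The log2 fold change of *Fli1* was -0.34 (SE 0.099, limma adjusted p = 0.213), close to even in the pairs at -0.36 and -0.32, and its adjusted p was 0.164 in DESeq2 and 0.224 in edgeR.

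*Gata2*, a zinc finger factor required for stem cells and used by mast cells, went the other way. The gene lies on the plus strand of chromosome 6 from 88193891 to 88207032. It had 6481 and 5883 normalized counts in the controls and 7583 and 8202 in *Bptf* cKO, so that the lowest *Bptf* cKO library was above the highest control. The log2 fold change was 0.35 (SE 0.10, limma adjusted p = 0.206, DESeq2 0.0964, edgeR 0.228). The replicate 2 pair differed by 0.48 and the replicate 1 pair by 0.23 on the log2 scale.

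The basic helix-loop-helix genes did not separate the genotypes. *Tal1*, on the plus strand of chromosome 4 from 115056426 to 115071755, had 4248 and 3774 normalized counts in the controls and 3918 and 3917 in *Bptf* cKO. Both *Bptf* cKO values lay between the controls. The log2 fold change was -0.032 (SE 0.10, limma adjusted p = 0.926), with -0.12 and 0.054 in the pairs of equal number, and it was 0.020 with the libraries recentred on their medians, a scaling that moved the median of all genes by 0.052. *Lyl1*, on the plus strand of chromosome 8 from 84701457 to 84704715, had 3892 and 3315 in the controls and 3883 and 4456 in *Bptf* cKO. Its log2 fold change was 0.21 (SE 0.13, limma adjusted p = 0.498), and the pairs gave -0.0032 and 0.43.

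*Runx1* (chr16:92601466-92826149, minus strand) had the widest spread of the 7. Its controls stood at 4127 and 2672 normalized counts, and *Bptf* cKO at 3031 and 2613. The gap between the controls, 0.63 on the log2 scale, exceeded the log2 fold change of -0.24 (SE 0.22, limma adjusted p = 0.676). The pairs of equal number gave -0.45 and -0.032. Without control replicate 1 the log2 fold change of *Runx1* was 0.075, and without control replicate 2 it was -0.55, so its direction turned with 1 library.

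**Figure D2:**
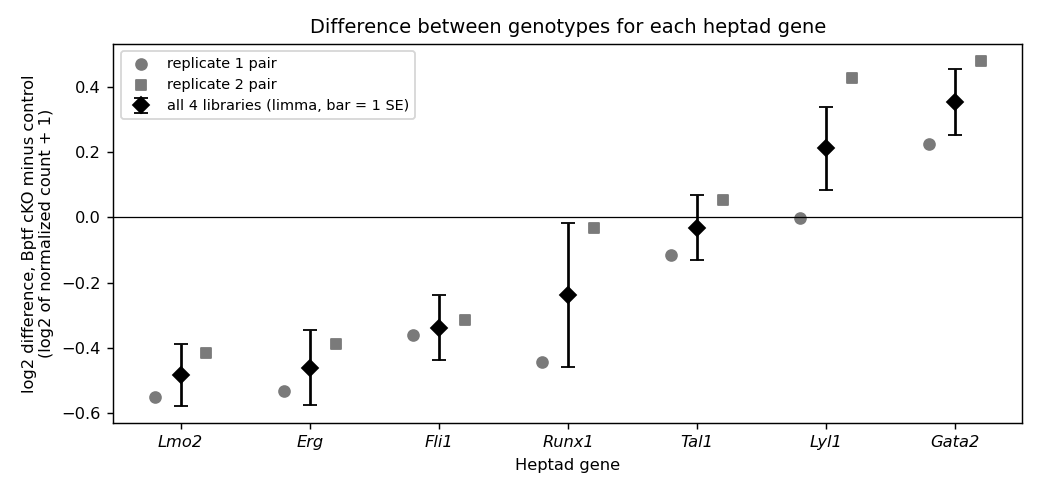
Log2 difference between *Bptf* cKO and control (y axis) for each heptad gene in order of its value. Diamonds with bars are the limma estimate from 4 libraries with 1 SE, and grey circles and squares are the replicate 1 and 2 pairs. *Lmo2*, *Erg*, *Fli1* and *Runx1* are below 0 and *Gata2* is above 0 in both pairs, with *Runx1* at -0.032 in the replicate 2 pair. *Tal1* and *Lyl1* lie on opposite sides of 0 in the pairs, with *Lyl1* at -0.0032 in the replicate 1 pair.

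Levels of different genes can be compared only per length, so normalized counts were divided by the kilobases of annotated exon sequence of each gene. On this scale *Lmo2* was the most abundant heptad RNA, with 6712 and 6620 normalized counts per kilobase in the controls and 4576 and 4966 in *Bptf* cKO. *Lyl1* came next, from 1842 to 2475 over the 4 libraries, and did not overlap *Lmo2*. *Erg* (1071 to 1645) and *Gata2* (1090 to 1519) followed and did not differ beyond their spread over the libraries. *Erg* was the higher of them in both controls, at 1551 against 1201 and 1645 against 1090, and *Gata2* in both *Bptf* cKO libraries, at 1405 against 1071 and 1519 against 1257. The order of *Erg* and *Gata2* depended on the length used. By their means over the libraries, *Gata2* ranked 3 and *Erg* 4 with the longest transcript as length. With coding length *Gata2* ranked 2 and *Erg* 5. *Gata2* has 5398 bases of annotated exons and a longest transcript of 3571. *Tal1* (862 to 970), *Fli1* (565 to 763) and *Runx1* (217 to 343) came last, and none of these ranges overlapped the next. *Runx1* has 12025 bases of annotated exons, far more than its longest transcript of 5861, which lowers its level on this scale. *Lmo2* ranked 81 and *Runx1* ranked 4627 among the 14608 tested genes with a length.

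The summed level of the 7 genes was 13666 and 13044 normalized counts per kilobase in the controls and 10922 and 11943 in *Bptf* cKO. *Lmo2* made up 49.1% and 50.8% of that sum in the controls and 41.9% and 41.6% in *Bptf* cKO. The share of *Gata2* was 8.79% and 8.36% in the controls and 12.9% and 12.7% in *Bptf* cKO, and that of *Lyl1* was 15.8% and 14.1% against 19.8% and 20.7%. These shares add to a fixed total, so a lower share of 1 gene raises the others. A share within a library does not depend on the size factors.

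**Figure D3:**
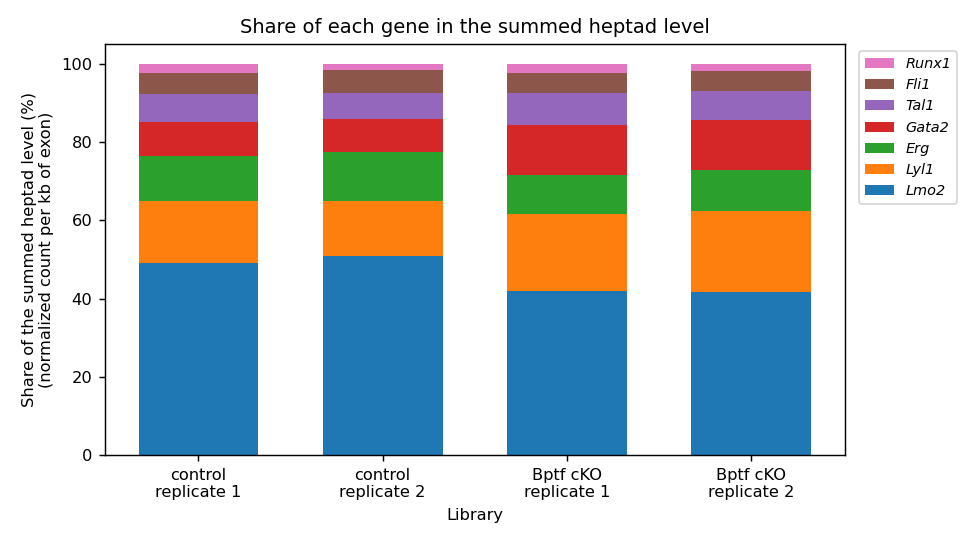
Share of each heptad gene in the summed level per kilobase of exon (y axis, percent) in each library. *Lmo2* (bottom) takes 49.1% and 50.8% in the controls and 41.9% and 41.6% in *Bptf* cKO, and *Gata2* and *Lyl1* take larger shares in *Bptf* cKO.

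Within the related pairs, the ratio of *Tal1* to *Lyl1* was 0.13 and 0.19 on the log2 scale of normalized counts in the controls and 0.013 and -0.19 in *Bptf* cKO. The difference of -0.24 had an exact two-sided permutation p of 0.333, the smallest that 2 against 2 libraries allow. The ratio of *Erg* to *Fli1* was 1.08 and 1.10 in the controls and 0.91 and 1.03 in *Bptf* cKO, a difference of -0.12 with the same exact permutation p of 0.333. Each ratio was below both controls in the *Bptf* cKO libraries, and no other comparison of this kind was made.

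Among 10282 other genes that averaged 100 or more normalized counts, the 5 closest to *Lmo2* in their centred log2 values over the 4 libraries lay at Euclidean distances of 0.0079 to 0.060 and included *Ivd*, *Cd63*, *Zfp189* and *Klhl4*. *Ivd* had a log2 fold change of -0.48 and *Cd63* of -0.50, neither with a limma adjusted p under 0.05. The closest to the mean profile of the 7 members was *Hhex*, a homeobox gene of blood progenitors that is itself on the target list below, at a distance of 0.014, with 2796 and 2546 normalized counts in the controls and 2372 and 2504 in *Bptf* cKO. *Spns2*, *Rnf135*, *Comtd1* and *Oas3* came next. Among the members, the nearest profiles were those of *Lmo2* and *Erg*, at 0.11, and the farthest those of *Lmo2* and *Gata2*, at 0.84. Likeness over 4 libraries is loosely fixed, and by Pearson correlation 1 of the 5 genes nearest to *Lmo2* and 2 of the 5 nearest to the mean were shared.

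The promoters of the members were searched for the letters that heptad factors bind, and for the AP1 motif of FOS and JUN, which are not heptad factors. RefSeq windows on GRCm38.p6, from 250 bases before to 50 after a start site, were at hand for 5 of the 7 members (10 windows for *Tal1*, *Gata2*, *Lyl1*, *Runx1* and *Erg*), and not for *Lmo2* and *Fli1*. On either strand, the E-box CANNTG was in 5 of the 10 windows and in 72.3% of all 32851 windows, the GATA motif GATAAG in 1 and in 7.44%, the ETS motif AGGAAG in 2 and in 35.4%, the RUNX motif TGTGGT in 1 and in 16.8%, and the AP1 motif TGANTCA in 0 and in 7.81%. The 3 windows with a match before the start site are shown, 250 bases each, 5′ to 3′ on the strand of the gene, with matches in capitals. The *Erg* window lies before its most downstream start (chr16:95459349-95459598, minus strand) and holds 2 E-boxes, a GATA match and an ETS match, the last 2 as their reverse complements. The *Runx1* window lies before its distal start (chr16:92826075-92826324, minus strand) and holds 3 E-boxes and an ETS match, and its 2 RUNX matches lie after this stretch. The *Lyl1* window (chr8:84701207-84701456, plus strand) holds 1 E-box. A match describes these letters only, and bound sites outside these windows were not looked for.
Erg: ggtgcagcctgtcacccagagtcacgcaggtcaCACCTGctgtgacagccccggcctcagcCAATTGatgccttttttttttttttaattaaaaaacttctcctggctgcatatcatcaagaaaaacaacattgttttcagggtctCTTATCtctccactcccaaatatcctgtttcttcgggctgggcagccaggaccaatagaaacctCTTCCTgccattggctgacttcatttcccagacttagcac
Runx1: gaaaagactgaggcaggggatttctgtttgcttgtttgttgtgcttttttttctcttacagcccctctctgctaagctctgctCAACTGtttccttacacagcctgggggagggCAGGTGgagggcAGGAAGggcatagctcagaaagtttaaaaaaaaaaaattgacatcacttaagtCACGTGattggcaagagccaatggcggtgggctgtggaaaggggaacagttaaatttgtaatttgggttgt
Lyl1: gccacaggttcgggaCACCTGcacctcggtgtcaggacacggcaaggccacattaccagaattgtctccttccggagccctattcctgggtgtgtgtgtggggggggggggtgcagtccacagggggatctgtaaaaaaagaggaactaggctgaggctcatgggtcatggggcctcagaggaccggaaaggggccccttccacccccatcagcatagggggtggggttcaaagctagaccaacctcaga

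The deposited values cover whole genes, so RNA from separate start sites was not distinguished. The annotation places no other tested gene on the exons of the members except *Nfix*, which shares 4 bases of exon with *Lyl1* on the opposite strand. The untested antisense entry *Gm26626* shares 106 bases of exon with *Runx1*, and as the strand setting of the counting is not given in the sources used here, reads of the 2 cannot be told apart there.

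The nearest tested protein-coding gene on each side of a member that did not overlap it was taken, 14 genes in all. *Nfix* and *4931422A03Rik*, which overlap *Lyl1* and *Lmo2* on the opposite strand, were left out. Of these, 1 fell and 0 rose in limma, against 0.37% of all tested genes in each direction. The gene that fell was *Pdzk1ip1*, a small membrane protein gene 17.0 kb beyond *Tal1* that is also on the target list. It had 627 and 621 normalized counts in the controls and 279 and 286 in *Bptf* cKO (log2 fold change -1.14, SE 0.14, limma adjusted p = 0.0444), whereas *Tal1* itself did not separate the genotypes. *Stil*, 13.2 kb on the other side of *Tal1*, had 1081 and 1673 in the controls and 1202 and 1563 in *Bptf* cKO. The call of *Pdzk1ip1* was not made by edgeR (adjusted p = 0.0513), nor in limma without any 1 of the 4 libraries, and DESeq2 made it.

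The other neighbours did not pass in limma. *Caprin1* and *Fbxo3*, which flank *Lmo2*, had log2 fold changes of 0.17 and 0.12 (limma adjusted p = 0.495 and 0.612), and *Lmo2* had -0.48. *Rpn1*, an oligosaccharyltransferase subunit gene 88.6 kb from *Gata2*, had 5834 and 6108 normalized counts in the controls and 9223 and 9441 in *Bptf* cKO, 0.64 higher on the log2 scale (limma adjusted p = 0.0570). *Eefsec* on the other side of *Gata2* had 0.045. The ETS genes *Ets1*, next to *Fli1*, and *Ets2*, next to *Erg*, had -0.52 and 0.18 (limma adjusted p = 0.544 and 0.676). The median over the 14 neighbours was 0.081.

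Of 32 partners and relatives of the heptad (cofactors, E proteins, ID inhibitors and paralogs), 28 were tested, and none passed in limma. At an unadjusted limma p under 0.05 the count was 5 of 28, near the 15.7% of all tested genes. At an adjusted p under 0.05 edgeR called 0 of 28, against 0.633% of all tested genes. DESeq2 called 2 of 28, near its 5.51% of all tested genes. Their median log2 fold change was -0.055. *Ldb1*, the cofactor that binds LMO2, ranged from 5962 to 7848 normalized counts with overlapping genotypes (log2 fold change -0.013, limma adjusted p = 0.983), and the E protein gene *Tcf3* from 4938 to 6565 (-0.027, limma adjusted p = 0.960). *Cbfb*, the partner of RUNX1, had 4876 and 4337 in the controls and 6337 and 5215 in *Bptf* cKO (0.32, limma adjusted p = 0.331). *Cbfa2t3*, a corepressor found in TAL1 complexes, had 5889 and 6119 against 7416 and 7534 (0.32, limma adjusted p = 0.194). The *Bptf* cKO libraries were above both controls for these last 2 genes. Over the 28 partners, 5 lay above and 8 below both controls, against 23.2% and 23.8% of all tested genes.

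The 2 partner genes that DESeq2 called moved in opposite directions. *Gfi1*, a repressor gene of stem cells and granulocytes, had 1380 and 1333 normalized counts in the controls and 2047 and 2256 in *Bptf* cKO (log2 fold change 0.66, limma adjusted p = 0.0726). *Id3*, which encodes an inhibitor of E proteins, had 138 and 83.2 in the controls and 37.7 and 35.3 in *Bptf* cKO (-1.53, limma adjusted p = 0.147). *Id2*, of the same family, had 129 and 132 against 170 and 586, so that its difference rested on *Bptf* cKO replicate 2. *Lmo4*, a relative of *Lmo2*, had 1276 and 902 against 1689 and 1525 (0.58, limma adjusted p = 0.248). *Gfi1b*, the relative of *Gfi1* used in erythroid and megakaryocytic cells, had 716 and 850 against 456 and 621 (-0.55, limma adjusted p = 0.279).

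Target genes with an enhancer or promoter known to be bound by heptad factors were lower more often than higher. Of 30 such genes 29 were tested, 3 fell and 0 rose in limma, 25 had a negative and 4 a positive log2 fold change, and the median was -0.32. Over all tested genes, 7400 had a negative and 7458 a positive log2 fold change. Both *Bptf* cKO libraries were below both controls for 15 of the 29 and above for 0, where all tested genes had 23.8% below and 23.2% above. The list was chosen with earlier results of these data known and shares 3 genes with the erythroid, 4 with the megakaryocyte and 2 with the stem cell markers described next. The limma count of 3 of 29 lower stands against 0.37% of all tested genes. DESeq2 called 5 of the 29, and these were lower, against 3.37%, and edgeR called 1 lower, against 0.303%.

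*Epor*, the erythropoietin receptor gene, fell from 326 and 255 to 77.3 and 69.1 (-1.96, SE 0.24, limma adjusted p = 0.0443, edgeR 0.0513), and *Pdzk1ip1*, given above, fell as well. *Klf1*, an erythroid factor, had 367 and 143 against 57.8 and 49.4 (-2.08, limma adjusted p = 0.142). *Meis1*, called by DESeq2 as was *Klf1*, had 4902 and 5560 against 3579 and 3778 (-0.51, limma adjusted p = 0.118). *Csf1r*, a macrophage receptor gene, had 598 and 137 against 101 and 155, with overlapping genotypes. The limma count of 3 was 1 without control replicate 1, 1 without control replicate 2, and 0 without either *Bptf* cKO library.

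**Figure D4:**
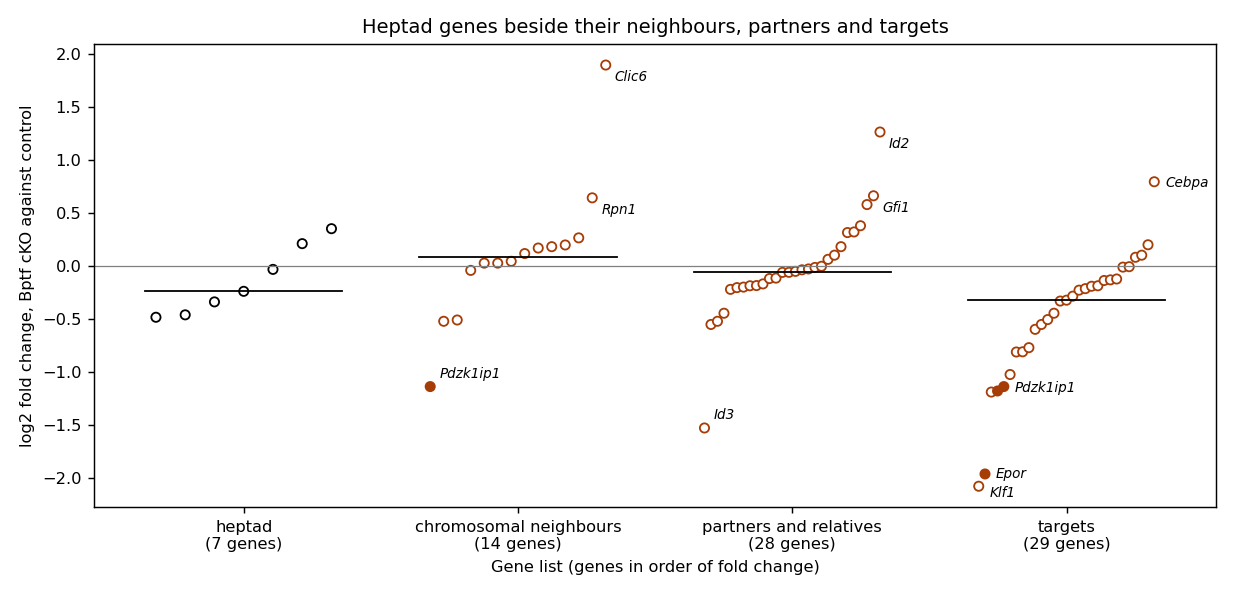
Log2 fold change of *Bptf* cKO against control (y axis) for the tested genes of the heptad and of the 3 lists around it, in order of value within each list. Filled points passed a limma adjusted p of 0.05 and lines are medians. *Pdzk1ip1*, which is on 2 lists, and *Epor* are among the filled points, and no heptad gene is.

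Summed markers of several cell types that express heptad genes also separated the genotypes. For the counts that follow, 23.8% of all tested genes lay below and 23.2% above both controls in each *Bptf* cKO library. Of 6 mast cell or basophil markers, 5 lay above both controls in each *Bptf* cKO library, the same direction as *Gata2*, and the summed level of the 6 was 1294 and 525 normalized counts in the controls and 5330 and 16868 in *Bptf* cKO. *Cpa3*, a mast cell protease gene, had 855 and 244 against 3645 and 9868, and *Mcpt8*, a basophil protease gene, 167 and 104 against 710 and 3022. None of the 6 passed in limma and none of them was at 0. Within *Bptf* cKO, replicate 2 had the higher summed mast cell level and the higher *Gata2*, and in the controls replicate 1 had the higher of both. The part of these cells in the *Gata2* result was not tested.

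Stem cell and erythroid markers went the way of *Lmo2*, *Erg* and *Fli1*. Of 7 stem cell markers 5 were lower in both *Bptf* cKO libraries and none passed in limma, and their sum was 11432 and 16690 in the controls and 8262 and 10585 in *Bptf* cKO. *Procr*, a surface marker of stem cells, had 750 and 1289 against 510 and 614. Of 8 erythroid markers 7 were lower in both and 1, *Epor*, passed, with sums of 3496 and 2535 against 972 and 1020. The 7 megakaryocyte markers summed to 11321 and 9950 against 6852 and 7034. Of these 7, 2 were lower in both *Bptf* cKO libraries, near the 23.8% of all tested genes, and 1 passed in limma. Endothelial cells express *Erg*, *Fli1*, *Tal1* and *Gata2* too, and the defining endothelial gene *Cdh5* was near 0 in every library, at 3.10 and 9.70 normalized counts in the controls and 3.90 and 5.64 in *Bptf* cKO. Other low genes of the list differed from *Cdh5*. *Cldn5*, too low to be tested, had 10.1 and 19.4 in the controls and 0.650 and 0 in *Bptf* cKO. *Kdr* had 31.0 and 54.1 against 25.3 and 18.3, and *Plvap* had 91.5 and 65.1 against 100 and 50.8, with overlapping genotypes. The 9 endothelial markers, of which 5 are on the target list and several are also expressed by stem cells, summed to 9392 and 9948 against 7920 and 8705, with 3 of the 7 tested lower in both *Bptf* cKO libraries, against the 23.8% of all tested genes, and none passing. The part of these shifts in the heptad values was not tested.

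**Figure D5:**
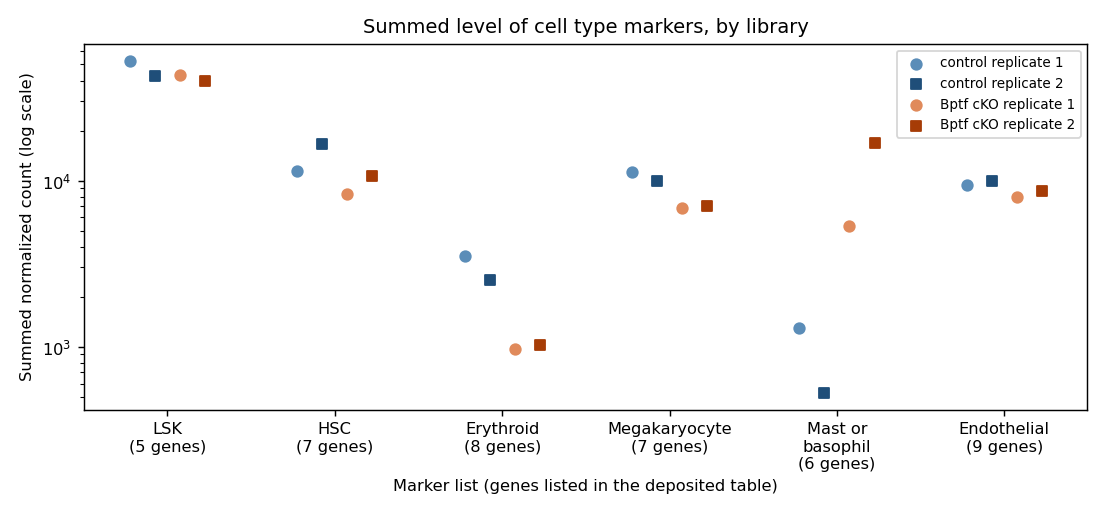
Summed normalized counts (y axis, log scale) of 6 marker lists in each library. The mast cell or basophil sum is above both controls in both *Bptf* cKO libraries. The stem cell, erythroid, megakaryocyte and endothelial sums are below both controls, and the LSK sums overlap.

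Markers of other lineages overlapped between genotypes in their sums, apart from the lymphoid-primed ones, and several varied within a genotype. Of 6 T or NK cell markers 2 were in the table, with sums of 119 to 146 normalized counts over the 4 libraries. The 6 B cell markers summed to 6807 and 1793 in the controls and 3813 and 2262 in *Bptf* cKO. The 9 granulocyte or monocyte markers summed to 59853 and 12228 against 54522 and 47258. The 6 lymphoid-primed markers summed to 14121 and 6016 against 5177 and 3158, so both *Bptf* cKO sums were below both controls. Of these 6, 3 were lower in both *Bptf* cKO libraries, against 23.8% of all tested genes. The 5 stromal markers in the table summed to 2134 and 870 against 1774 and 1077. None of these lists had a gene that passed in limma. Control replicate 1 was the highest library in each of these lists, as it was for *Runx1* and *Tal1*. It was also the highest for *Lmo2*, where the controls were nearly level at 14539 and 14339 normalized counts. The part of these lineages in the heptad values was not tested.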

How the data were processed

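LSK cell RNA was sequenced in 2 control and 2 *Bptf* cKO libraries, grouped and numbered by their titles. Per the labels, the submitters' processing notes name HISAT2, featureCounts, DESeq2 and the builds GRCm38 and mm10. Versions, annotation and strand setting are not given in the sources used here. The authors deposited a signal per library, gene counts divided by a size factor, with the mean beside it. The authors' own comparison, deposited as a log2 fold change with its error, a score and p-values, was not used. The lowest value above 0 in a library is worth 1 read, and dividing by it gave whole reads for 100% of values (within 0.01 read), 24875746 and 14091054 in the controls and 30134742 and 14104526 in *Bptf* cKO, on 18598 genes with at least 11 reads in all. Only counting error depends on this depth, and 2 libraries per genotype limit the precision.

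Genes with a mean of at least 10 (14858) were tested on log2(normalized count + 1) with limma 3.58.1 in R 4.3.3 (mean-variance trend, genotype as factor, Benjamini-Hochberg, two-sided). The pseudocount understates the change of low genes. The labels do not say that the libraries are more than separate pools of 5 mice, so p-values measure the spread between these pools. Without the replicate number in the fit, this spread includes the difference between replicates 1 and 2 that both genotypes share, as in *Xist*. On the recovered reads, edgeR 4.0.16 (quasi-likelihood, TMM) and DESeq2 1.42.0 (Wald) were run as alternatives, with other pseudocounts (0.5 and 10), filters (none and a mean of 50), scalings, a replicate block and each library left out. The fits were tested on simulated data. Coordinates, exon lengths and neighbours came from GENCODE vM21 (GRCm38) by symbol, and promoters from RefSeq (GRCm38.p6). Ratios and summaries were computed with scipy 1.17.1, pandas 2.3.3 and numpy 2.4.6 under Python 3.11.15.

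The members and gene lists were chosen with earlier results of these data known. Named genes were the members, their neighbours, every called partner or target, the 4 largest differences of each list with a mean of at least 100, *Ldb1*, *Tcf3*, *Cbfb* and *Cbfa2t3*, and the 5 genes most like the members. *Id3*, *Meis1*, *Hhex* as a target, and the marker genes given were named after their values were seen. Some genes that the rule would name are not reported here.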

Additional observations from a re-analysis of the deposited data

How the results depend on the processing

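The directions of *Lmo2*, *Erg*, *Fli1*, *Gata2* and *Lyl1* held under each of the 16 alternatives run, and 4 members (5 with libraries recentred) did not overlap between genotypes under each scaling, pseudocount and filter tried. Of 112 member values under alternatives, 96 kept direction and side of the threshold, 13 newly passed it and 3 turned. *Tal1* turned to 0.020 with libraries recentred, and leaving out a library gave -0.12 to 0.054 for *Tal1* and -0.55 to 0.075 for *Runx1*. The cause was not tested where none is named.

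DESeq2 without a block passed *Lmo2* (-0.48) and *Erg* (-0.46), with 2 members, 2 neighbours, 2 partners, 5 targets, and 500 genes lower and 319 higher over all genes. *Bptf* no longer passed with libraries recentred (-0.71), in limma without the trend (-0.76), in edgeR (-0.76) or without 1 library (-0.80 to -0.72). Neighbours called were 0 with recentred libraries, with quantile normalization, without the trend, in edgeR, and without any 1 library (0 to 0). Targets called were 1 in edgeR, 0 without the trend and 0 to 1 without 1 library. Limma without the trend called 0 genes lower and 2 higher over all genes, and leaving out 1 library gave 0 to 41 lower and 1 to 76 higher, where the lone library of a genotype is assumed to vary like the others and fewer samples carry the fit.

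The replicate numbers are in the labels, which do not say that they pair the libraries. By *Xist* and *Pou5f1*, replicate 2 stood apart from replicate 1 in both genotypes. Libraries of equal number deviated together across 14858 tested genes (r = 0.452), with no p since genes are not replicates. With the replicate block, limma passed *Lmo2* (-0.48), *Erg* (-0.46), *Fli1* (-0.34) and *Gata2* (0.35), and called 4 members, 3 neighbours, 8 partners, 13 targets, and 1242 genes lower and 896 higher (14.4% of all tested). In edgeR with the replicate block the same 4 members passed (-0.48, -0.46, -0.34 and 0.35), with 4 members, 4 neighbours, 8 partners, 12 targets, and 1229 lower and 891 higher (14.3%). DESeq2 with the replicate block, chosen after seeing the data, passed *Lmo2* (-0.48), *Erg* (-0.46) and *Gata2* (0.35), with 3 members, 2 neighbours, 3 partners, 9 targets, and 560 lower and 382 higher (6.34%).

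Per kilobase, 2 members changed rank with the longest transcript as length and 6 with coding length, *Lmo2* staying first. Pearson correlation shared 2 of 5 genes nearest to the mean and 1 of 5 nearest to *Lmo2*. *Ldb1*, *Tcf3* and *Dyrk1a* turned to 0.039, 0.024 and 0.011 with libraries recentred, and *G430095P16Rik*, next to *Lyl1*, to -0.070 in edgeR, -0.017 in edgeR with the block and -0.069 in DESeq2. Leaving out 1 library gave -0.21 to 0.19 for *Ldb1*, -0.23 to 0.18 for *Tcf3*, -0.29 to 0.34 for *Stil*, -0.52 to 0.57 for *G430095P16Rik*, -0.12 to 0.21 for *Eefsec*, -0.023 to 0.56 for *Setd4*, -1.32 to 0.30 for *Kcnj5* and -0.12 to 0.034 for *Dyrk1a*.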
